A study of Mus musculus with 6 samples.

Results

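The Slc25 genes encode the mitochondrial carriers, a family of membrane transporters, and are described here in mouse oocytes with and without a homozygous Brwd1 mutation. A gene was taken as a member where a probe set of the array carried a single gene symbol made of Slc25a and a number, and a gene with several such probe sets was represented by the one with the highest mean over the 6 arrays. This gave 46 genes, held by 50 probe sets, of 19938 genes with a single-symbol probe set. Family members whose symbols follow another pattern, such as the uncoupling proteins, are treated apart below. The oocytes were at the germinal vesicle (GV) stage, when meiosis is still arrested in its first prophase. They came from B6/C3H females aged 2 to 6 months that had received 5 IU equine chorionic gonadotropin, a hormone with follicle-stimulating activity, 44 h earlier. One group was wildtype and the other was homozygous for the Brwd1 mutation, and the labels do not name the allele or the part of the gene it affects. Each group had 3 samples of 100 oocytes, numbered as in the labels, and each sample was read on its own array. Nothing in the labels ties the pools to separate females. The p-values thus set each difference against the scatter of these samples, which may be technical in part. They cannot be extended to separate females.

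Mitochondrial carriers are small proteins built from repeats of a pair of membrane helices, and most sit in the inner membrane of the mitochondrion. They exchange ADP for ATP, import phosphate, and move carboxylates, amino acids, acylcarnitines, nucleotides, cofactors and iron between the cytosol and the matrix. The fully grown oocyte holds a very large number of mitochondria, takes up pyruvate supplied by its follicle cells and depends on oxidative phosphorylation for its ATP.

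Levels are RMA values on the log2 scale, where a difference of 1 is a doubling. Across the arrays the median signal of all probe sets lay between 4.69 and 4.79. As a guide to background, 1210 probe sets of olfactory and vomeronasal receptors had a median of 3.14 and a 95th percentile of 4.48. Brwd1 was at 8.91, 9.08 and 8.98 in wildtype samples, against 4.41, 4.56 and 4.50 in the mutant samples, so the labels and the targeted gene went together, and the mutant signal lay about at the guide. All 15 oocyte markers, among them Gdf9 and Zp3, were above the guide on all 6 arrays. Of 18 granulosa and cumulus markers 7 were above it on all arrays, with mean levels of 4.95 to 4.98 for wildtype and 4.98 to 5.03 for mutant arrays, and of 7 theca and stroma markers 2, with 4.27 to 4.33 and 4.33 to 4.36. The 8 blood, immune and endothelial markers had mean levels of 4.72 to 4.87 on wildtype and 4.92 to 5.08 on mutant arrays. Within that list 3 of 8, C1qb, Cd68 and Pecam1, were above the guide on all arrays, C1qa and Cdh5 on some, and Ptprc, Csf1r and Adgre1 on none. The difference was positive for 7 of the 8, and it was 0.90 for C1qb (limma, adjusted p = 0.162), 0.18 for Pecam1 and -0.070 for Cd68. None of these markers passed the threshold. Their part in the differences of the carriers was not tested. Fewer transcripts per oocyte and fewer intact oocytes in a pool cannot be told apart in such bulk samples.

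In wildtype oocytes the carriers ranged from signals under background to well above the upper quartile of all genes. The wildtype means ran from 3.42 for Slc25a21 to 9.85 for Slc25a48, where all genes ran from 2.31 to 12.7, with a median of 5.83 against 5.20 over all genes. The signal exceeded the guide on all 6 arrays for 32 of the 46 carriers, or 69.6% against 59.6% of all genes, on some arrays for 5, and on no array for 9. The probes of different genes bind with different strength, so the order of the signals describes the array and does not rank amounts of transcript.

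**Figure D1:**
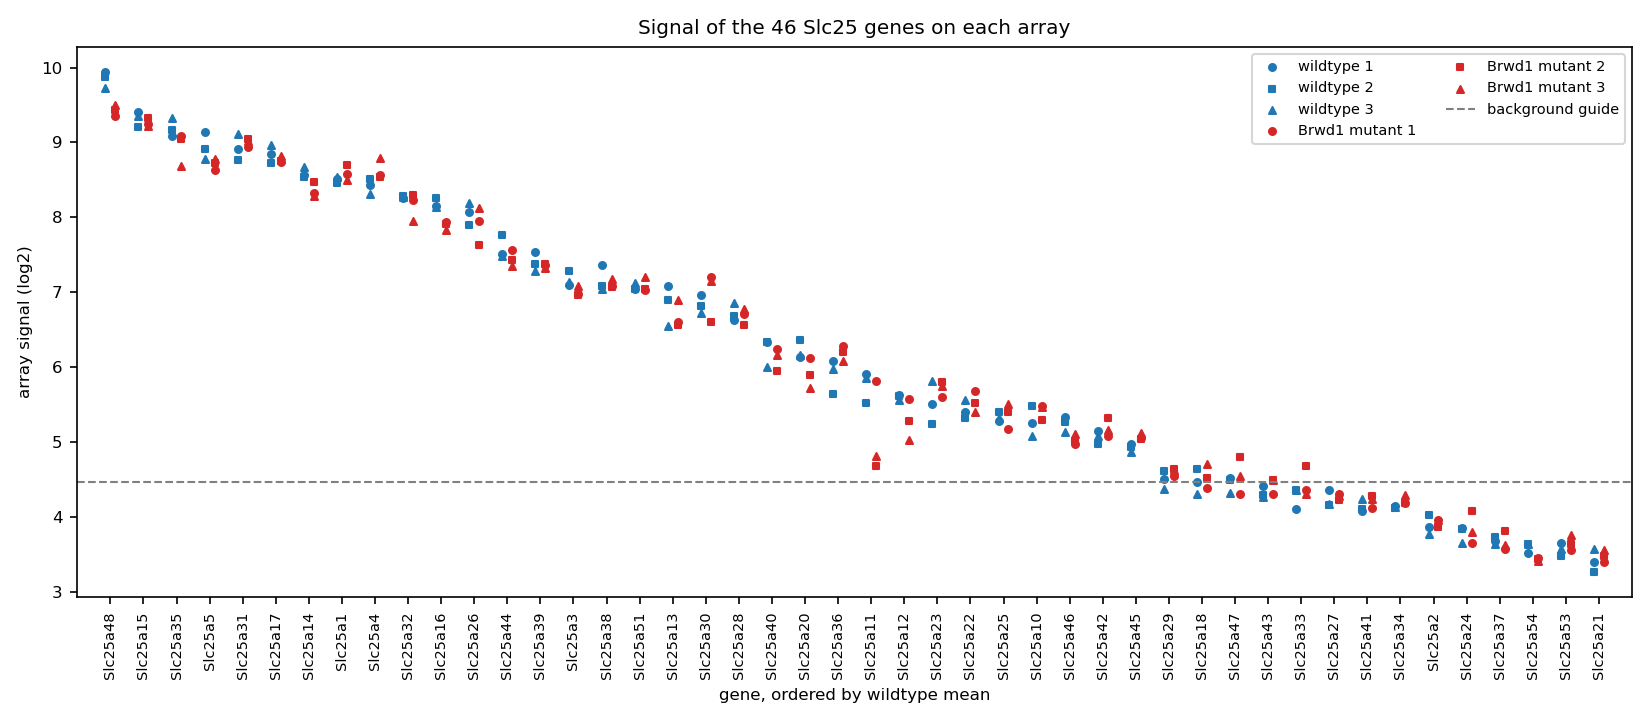
The log2 array signal (vertical axis) of each of the 46 Slc25 genes, ordered by wildtype mean, with 1 point per array, blue for wildtype and red for Brwd1 mutant, and the marker shape giving the replicate number. The dashed line is the background guide at 4.48. Slc25a48 leads on all 6 arrays, and Slc25a11 has mutant samples 2 and 3 far below its other 4 points.

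The highest signal of the family belonged to Slc25a48, a carrier reported to take part in mitochondrial choline uptake, at 9.94, 9.87 and 9.73 in wildtype 1, 2 and 3, which is the 95th percentile of all genes. It ranked first among the carriers on every array. Slc25a15, which exchanges ornithine and citrulline for the urea cycle, was second on every array, at 9.41, 9.20 and 9.35 in the wildtype samples. Then came Slc25a35, whose substrate is not settled, at 9.08, 9.16 and 9.33, and the ADP/ATP carrier Slc25a5, at 9.14, 8.91 and 8.78. The germ-cell ADP/ATP carrier Slc25a31 was at 8.91, 8.76 and 9.11. Slc25a17, a carrier of the peroxisome membrane for coenzyme A and related cofactors, was at 8.84, 8.73 and 8.96. Slc25a14, an uncoupling-like protein first described in brain, was at 8.56, 8.54 and 8.67, and the citrate carrier Slc25a1 at 8.51, 8.46 and 8.54. These 8 genes lay between the 85th and 95th percentile of all genes.

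Most neighbours in this order could not be separated. Of the 45 neighbouring pairs, the wildtype samples overlapped in 37 and were apart in 8. Slc25a48 was apart from Slc25a15 by 0.53, Slc25a17 from Slc25a14 by 0.25, Slc25a4 from Slc25a32 by 0.14, and Slc25a26 from Slc25a44 by 0.47. Further down, Slc25a28 was apart from Slc25a40 by 0.50, Slc25a20 from Slc25a36 by 0.32, Slc25a45 from Slc25a29 by 0.43, and Slc25a34 from Slc25a2 by 0.24. Slc25a15, Slc25a35, Slc25a5, Slc25a31 and Slc25a17 thus form a run in which each overlaps the next.

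At the lower end, 9 carriers stayed at or under the guide on every array. They were the uncoupling-like Slc25a27, the ATP-Mg/phosphate carriers Slc25a41 and Slc25a24, the ornithine carrier Slc25a2, the erythroid iron carrier Slc25a37, the oxodicarboxylate carrier Slc25a21, and Slc25a34, Slc25a53 and Slc25a54, whose substrates are not settled. Slc25a29, Slc25a18, Slc25a47, Slc25a43 and Slc25a33 crossed the guide on some arrays only. For these 14 genes the signal cannot be told from background on at least 1 array.

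Promoters are shown for the carrier with the highest signal, Slc25a48, and for the 3 ADP/ATP carriers, and not for the other leading carriers. Each line gives the 250 bases before the gene start from RefSeq, build GRCm38.p6, read 5′ to 3′ on the strand of the gene, with every CpG in capitals. Slc25a48 lies on the plus strand (chr13:56438105-56438354), Slc25a4 on the minus strand (chr8:46211063-46211312), Slc25a5 on the plus strand (chrX:36795347-36795596) and Slc25a31 on the plus strand (chr3:40708621-40708870).
Slc25a48: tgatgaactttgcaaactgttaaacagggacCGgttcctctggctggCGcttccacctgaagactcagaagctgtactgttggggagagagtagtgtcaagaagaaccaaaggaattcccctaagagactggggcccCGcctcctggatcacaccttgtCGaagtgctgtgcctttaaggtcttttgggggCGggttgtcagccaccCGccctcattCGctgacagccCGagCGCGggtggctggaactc
Slc25a4: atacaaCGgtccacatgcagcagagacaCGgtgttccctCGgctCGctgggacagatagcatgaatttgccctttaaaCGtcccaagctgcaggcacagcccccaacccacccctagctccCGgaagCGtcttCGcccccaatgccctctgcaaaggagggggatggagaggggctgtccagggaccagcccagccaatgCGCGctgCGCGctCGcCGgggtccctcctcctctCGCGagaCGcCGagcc
Slc25a5: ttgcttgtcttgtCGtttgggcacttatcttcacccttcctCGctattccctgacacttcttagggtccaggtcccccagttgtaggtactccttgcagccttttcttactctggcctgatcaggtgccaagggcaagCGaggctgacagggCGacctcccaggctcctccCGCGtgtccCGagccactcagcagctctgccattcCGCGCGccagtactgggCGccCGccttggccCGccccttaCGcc
Slc25a31: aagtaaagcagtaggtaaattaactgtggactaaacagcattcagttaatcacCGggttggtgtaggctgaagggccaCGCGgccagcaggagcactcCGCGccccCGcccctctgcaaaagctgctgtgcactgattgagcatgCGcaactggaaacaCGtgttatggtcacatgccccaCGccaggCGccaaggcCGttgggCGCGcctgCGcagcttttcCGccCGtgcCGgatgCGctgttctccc
The window of Slc25a48 held 10 CpG, that of Slc25a4 18, that of Slc25a5 14 and that of Slc25a31 18. The promoter table matched 36 of the 46 carriers, with 46 start sites, and for a gene with several starts the highest CpG count was taken. The median was 14 CpG over these 36 carriers, from 1 for Slc25a34 to 43 for Slc25a15, against 12 over 15614 genes on the array. By signal, the median was 18 for 9 carriers above the upper quartile of all genes, 14 for 20 between the guide and that quartile and 10 for 7 at or under the guide, where all genes had 19, 14 and 4.

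Some promoter motifs were counted in the same windows on both strands, with a gene counted where any of its starts held the letters. Shares are set against all 27025 genes in the table and then against those of them on the array. The letters CCAAT stood in 18 of 36 carriers (50%), against 37.5% and 38.8%. They were found for Slc25a4 but not for Slc25a5, Slc25a31 or Slc25a48. The cyclic AMP response element TGACGTCA stood in Slc25a25 and Slc25a36, 5.56% against 1.77% and 2.33%. The TATA letters TATAAA stood in Slc25a18 and Slc25a21, 5.56% against 14.3% and 12.5%. The letters GCCATNTTG, a YY1 site, were in 0 of 36 windows, against 1.54% and 1.59%. These are matches of letters in a short window and no evidence for or against binding.

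No carrier passed the threshold between mutant and wildtype oocytes. With limma and Benjamini-Hochberg adjustment over all 23410 tested probe sets at 0.05, 0 of 46 carriers were called, where 0.137% of all probe sets were (0.0384% higher and 0.0982% lower, or 9 and 23, and 5 and 27 after median centring). The lowest adjusted p among the carriers was 0.122. At an unadjusted limma p under 0.05 there were 8 carriers, 2 higher and 6 lower in the mutant, or 17.4%, near the 14.7% of all probe sets (7.3% higher and 7.4% lower). The groups did not overlap for 10 carriers (21.7%), 3 higher and 7 lower, against 19.7% of all probe sets (10.1% higher and 9.66% lower). Differences ran from -0.66 for Slc25a11 to 0.29 for Slc25a36. In number 24 were positive and 22 negative, with a median of 0.030 against 0.013 over all genes. The sign of the carriers' median turned under other scalings, to -0.017 after cyclic loess and -0.022 after median centring. The median over all genes moved as well, to -0.0030 and -0.038.

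The intervals limit how large a missed difference in signal could be. The 95% confidence interval lay between -0.5 and 0.5 for 37 of the 46 carriers and between -1 and 1 for 45. The exception to the latter was Slc25a11, with an interval from -1.35 to 0.041. For all genes the counts were 16953 and 19634 of 19938. The interval lay between -0.5 and 0.5 for 11 of 13 carriers above the upper quartile of all genes. It did so for 15 of 22 between the guide and that quartile. All 11 at or under the guide were included, where a narrow interval says little about the transcript. The median SE of a carrier's difference was 0.091, against 0.082 over all genes.

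**Figure D2:**
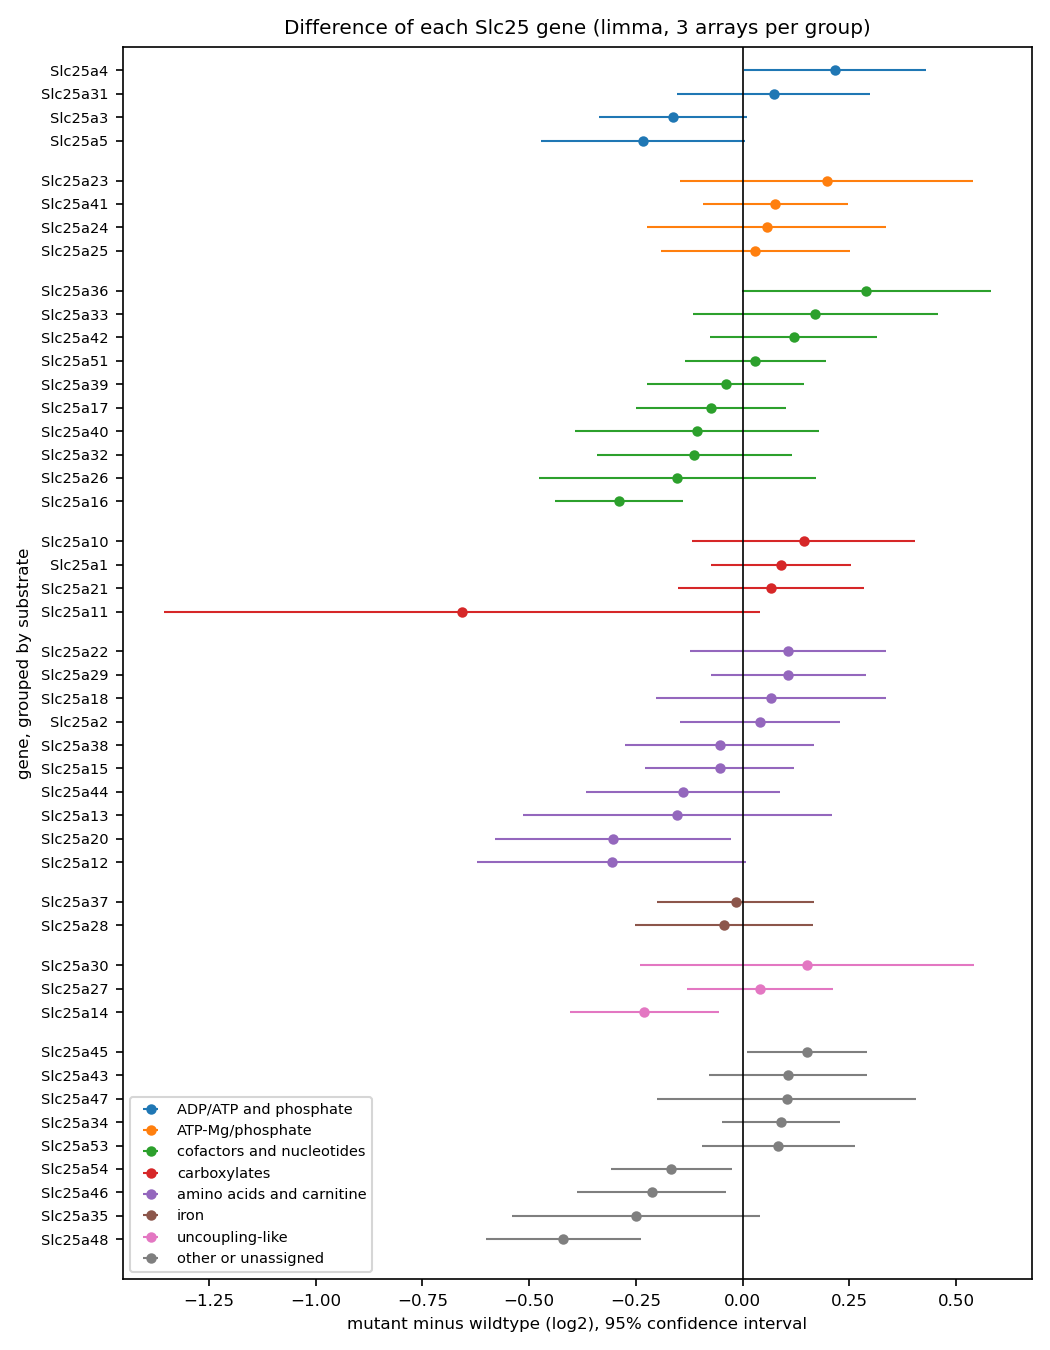
Mutant minus wildtype difference on the log2 scale (horizontal axis) for each of the 46 Slc25 genes, grouped by substrate in colours, with the point at the limma estimate and the bar its 95% confidence interval (3 arrays per group). Slc25a48, Slc25a16, Slc25a14, Slc25a20, Slc25a46 and Slc25a54 have intervals below 0 and Slc25a4 and Slc25a45 above 0, before any correction for the number of genes.

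Slc25a48 had the smallest p-value of the family. From 9.94, 9.87 and 9.73 in the wildtype samples it was at 9.35, 9.43 and 9.50 in mutant 1, 2 and 3. Every mutant sample was below every wildtype sample, and the gene still led the family in all of them. The difference was -0.42 (SE 0.076, 95% confidence interval -0.60 to -0.24, n = 3 per group), a 1.34-fold lower signal (limma, adjusted p = 0.122). It passed in 1 of the 16 alternatives, with trend and robust variance estimation (limma, adjusted p = 0.0490), where adjusted p ranged from 0.0490 to 0.279 over all of them.

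The exchange of ADP for ATP across the inner membrane runs through Slc25a4, Slc25a5 and Slc25a31, and phosphate enters for ATP synthesis through Slc25a3. All 4 were above the guide on all arrays, and 0 of 4 passed. Slc25a4, the form of heart and muscle, was at 8.43, 8.51 and 8.31 in the wildtype and at 8.57, 8.54 and 8.79 in the mutant samples. Its groups did not overlap, and the difference was 0.22 (SE 0.090; limma, adjusted p = 0.333), or 0.14 without mutant 3. Slc25a5, the form of most dividing cells, was at 9.14, 8.91 and 8.78 and at 8.63, 8.72 and 8.78, so the lowest wildtype and the highest mutant sample met. Its difference was -0.23 (SE 0.100; limma, adjusted p = 0.349), or -0.135 without wildtype 1. The contrast between Slc25a4 and Slc25a5 was not tested. Slc25a31 was at 8.91, 8.76 and 9.11 and at 8.94, 9.04 and 9.02, with all mutant samples inside the wildtype range and a difference of 0.073 (SE 0.095; limma, adjusted p = 0.757), which was -0.010 without wildtype 2. Slc25a3 was at 7.10, 7.29 and 7.14 in the wildtype and at 6.98, 6.97 and 7.09 in the mutant samples. Its groups were apart by 0.01 at their nearest, and the difference was -0.16 (SE 0.073; limma, adjusted p = 0.364), or -0.11 without wildtype 2.

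The ATP-Mg/phosphate carriers, which set the adenine nucleotide content of the matrix and are in part regulated by calcium, were 4 of 4 positive with 0 passing. Slc25a23 was at 0.20 and Slc25a25 at 0.030, both above the guide, and Slc25a24 at 0.057 and Slc25a41 at 0.077, both under it. Genes of low and middle signal leaned the same way over the whole array, as described below.

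Of the 10 carriers of cofactors and nucleotides, 9 were above the guide on all arrays, 6 had negative and 4 positive differences, and 0 passed. Slc25a16, linked to the supply of coenzyme A in the matrix, was at 8.15, 8.26 and 8.14 in the wildtype and at 7.94, 7.91 and 7.83 in the mutant samples. The groups were apart, and the difference of -0.29 (SE 0.063; limma, adjusted p = 0.152) had the second smallest p-value of the family. Slc25a36, a pyrimidine nucleotide carrier, was at 6.09, 5.64 and 5.98 and at 6.28, 6.21 and 6.09, where the highest wildtype sample equalled the lowest mutant sample. Its difference was 0.29 (SE 0.123; limma, adjusted p = 0.341), or 0.16 without wildtype 2. The other pyrimidine carrier, Slc25a33, was at 0.17 with a signal about at the guide. Slc25a17 was at 8.84, 8.73 and 8.96 for wildtype and 8.74, 8.75 and 8.82 for mutant, a difference of -0.073 inside the wildtype spread. The remaining differences were -0.15 for the S-adenosylmethionine carrier Slc25a26, -0.11 for the folate and flavin carrier Slc25a32, -0.11 and -0.040 for the glutathione carriers Slc25a40 and Slc25a39, 0.030 for the NAD carrier Slc25a51 and 0.12 for the coenzyme A carrier Slc25a42.

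Among the 4 carboxylate carriers 3 were positive and 0 passed, and the negative one had the largest difference and the largest spread of the family. Slc25a11, the oxoglutarate carrier that exchanges 2-oxoglutarate for malate, was added to the genes described because of its values. It was at 5.91, 5.52 and 5.86 in wildtype samples, against 5.82, 4.68 and 4.82 in mutant 1, 2 and 3. Mutant 1 lay inside the wildtype range, and the other mutant samples were lower than every other value. The difference was -0.66 (SE 0.294; limma, adjusted p = 0.365). Without mutant 1 it was -1.01 (limma, adjusted p = 0.150) and without mutant 2 it was -0.44 (limma, adjusted p = 0.619). Slc25a1, which exports citrate for lipid synthesis, was at 8.51, 8.46 and 8.54 and at 8.58, 8.70 and 8.50, a difference of 0.090. The dicarboxylate carrier Slc25a10 was at 0.14 and Slc25a21 at 0.067.

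Of the 10 carriers of amino acids and carnitine 6 were negative and 4 positive, and 0 passed. Slc25a12, the calcium-binding aspartate/glutamate carrier that works with Slc25a11 in the malate-aspartate shuttle, was at 5.63, 5.62 and 5.56 in the wildtype and at 5.58, 5.28 and 5.03 in the mutant samples. As for Slc25a11, mutant 1 was inside the wildtype range and mutant 2 and 3 were below it. The difference was -0.31 (SE 0.132; limma, adjusted p = 0.350), or -0.17 without mutant 3. Its close relative Slc25a13 was at -0.15. Slc25a20, which brings acylcarnitines into the matrix for fatty acid oxidation, was at 6.14, 6.37 and 6.16 and at 6.13, 5.90 and 5.73. Mutant 1 was again the highest of its group, 0.01 below the lowest wildtype sample, and the difference was -0.30 (SE 0.116; limma, adjusted p = 0.301).

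Slc25a15 was at 9.41, 9.20 and 9.35 in the wildtype and at 9.25, 9.33 and 9.22 in the mutant samples, with overlapping groups and a difference of -0.053. Its relatives Slc25a2 and Slc25a29, which carry ornithine and basic amino acids, were at 0.040 and 0.11 with signals about at or under the guide. The branched-chain amino acid carrier Slc25a44 was at -0.14, the glycine carrier Slc25a38, needed for heme synthesis, at -0.053, and the glutamate carriers Slc25a22 and Slc25a18 at 0.11 and 0.067.

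**Figure D3:**
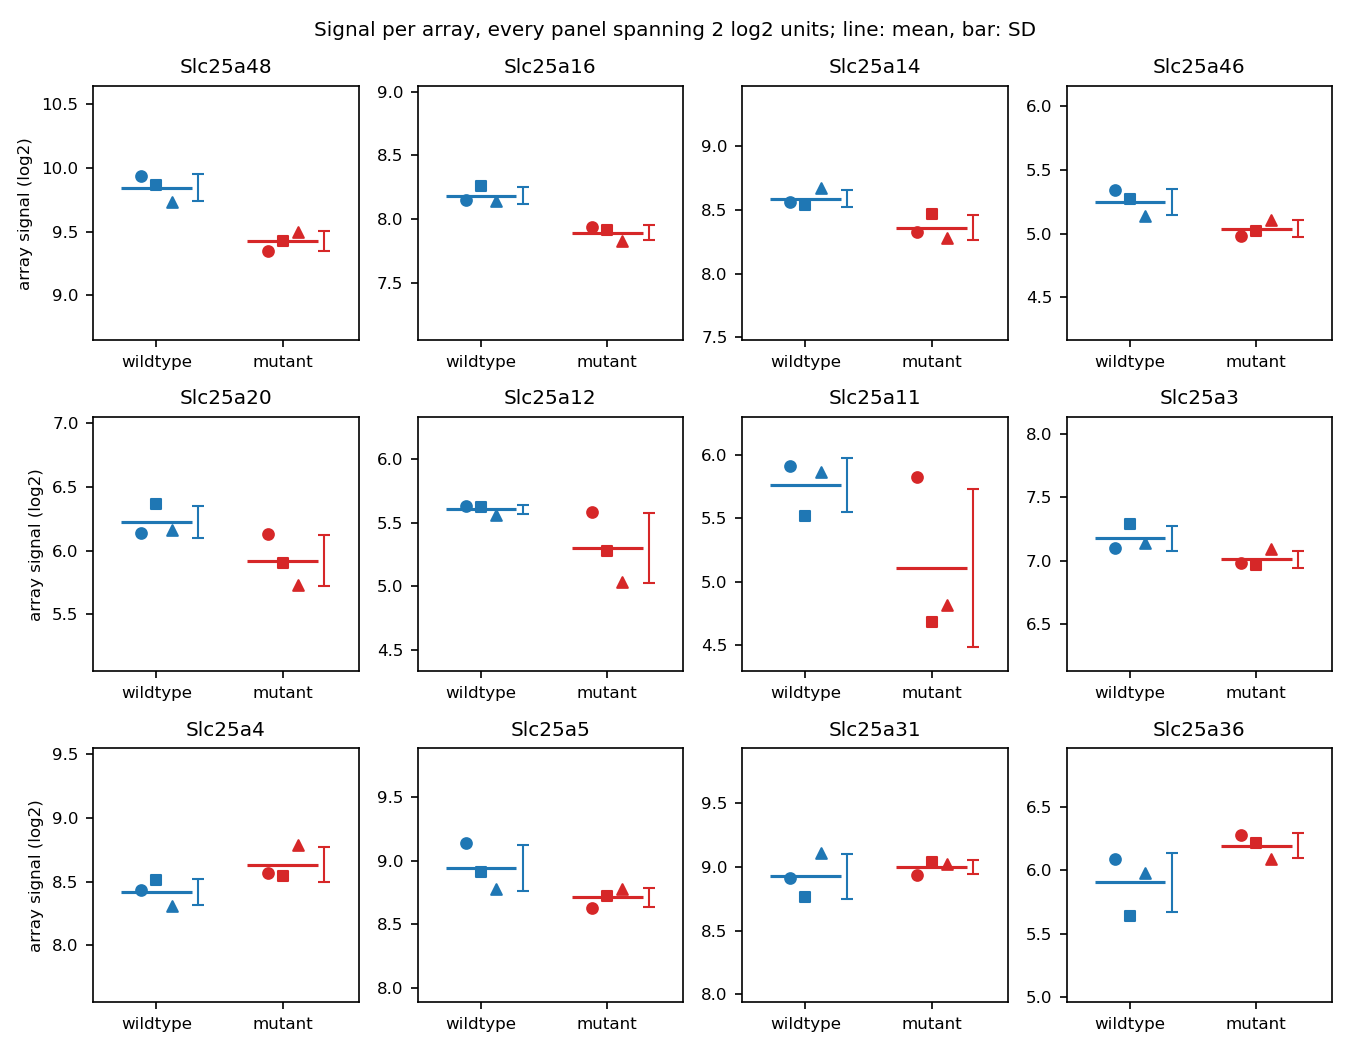
Log2 array signal (vertical axis) of 12 Slc25 genes in wildtype (blue) and Brwd1 mutant (red) samples, with the marker shape giving the replicate number, the line the mean and the bar the SD (n = 3). All panels span 2 log2 units, so heights can be compared. Slc25a48, Slc25a16, Slc25a14, Slc25a46, Slc25a20 and Slc25a3 have every mutant sample below the wildtype samples and Slc25a4 every mutant sample above, while Slc25a12 and Slc25a11 have mutant 1 at the wildtype level.

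The iron carriers differed most in whether they were seen at all. Slc25a28, the widely expressed mitoferrin, was at 6.73 in the wildtype and 6.68 in the mutant samples on average, and Slc25a37, the mitoferrin of red cell precursors, stayed under the guide. Their differences were -0.043 and -0.017. Of the 3 uncoupling-like carriers, Slc25a14 was at 8.56, 8.54 and 8.67 in the wildtype and at 8.33, 8.47 and 8.28 in the mutant samples. Its groups did not overlap, with a difference of -0.23 (SE 0.073; limma, adjusted p = 0.245). Slc25a30 was at 0.15 with wide spread, and Slc25a27 at 0.040 under the guide.

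Beside Slc25a48, 8 carriers had other roles or no settled substrate, and 0 passed. Slc25a46, an outer membrane protein tied to mitochondrial fission and shape, was at 5.34, 5.27 and 5.14 in the wildtype and at 4.98, 5.02 and 5.11 in the mutant samples. Its groups were apart by 0.03, with a difference of -0.21 (SE 0.073; limma, adjusted p = 0.269). Slc25a35 was at 9.08, 9.16 and 9.33 and at 9.09, 9.04 and 8.69, a difference of -0.25 (SE 0.122; limma, adjusted p = 0.398) set largely by mutant 3, since it was -0.125 without it. Slc25a45 was at 4.98, 4.94 and 4.87 and at 5.06, 5.05 and 5.13, a difference of 0.15 with groups apart (SE 0.059; limma, adjusted p = 0.309), which was 0.084 after cyclic loess, 0.089 after quantile normalization and 0.098 after median centring. Slc25a54 was at 3.53, 3.65 and 3.65 and at 3.46, 3.45 and 3.42, a difference of -0.17 (limma, adjusted p = 0.280) with all 6 values under the guide. Slc25a34 was at 0.090 with its groups apart and Slc25a53 at 0.083, both under the guide, and Slc25a43 at 0.11 and Slc25a47 at 0.10 lay about at it.

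The direction of the differences went with the level of the signal, for the carriers and for all genes. Above the upper quartile of all genes, at 7.45, 10 of 13 carriers (76.9%) were negative with a median of -0.14, and 64.2% of all 4983 genes were negative there with a median of -0.043. Between the guide and that quartile 10 of 22 carriers (45.5%) were negative, against 42.7% of all genes, with a median of 0.030 against 0.033. At or under the guide 9 of 11 carriers were positive, with a median of 0.067 against 0.027. Negative differences made up 18.2% of the carriers and 38.4% of all genes there. The median difference of all genes at a like level is thus the base for reading a small difference of 1 carrier. Over all probe sets, the upper quartile of an array was 7.12, 7.10 and 7.11 for wildtype and 7.09, 7.04 and 7.07 for mutant. The part of this shift in the trend with level was not tested.

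**Figure D4:**
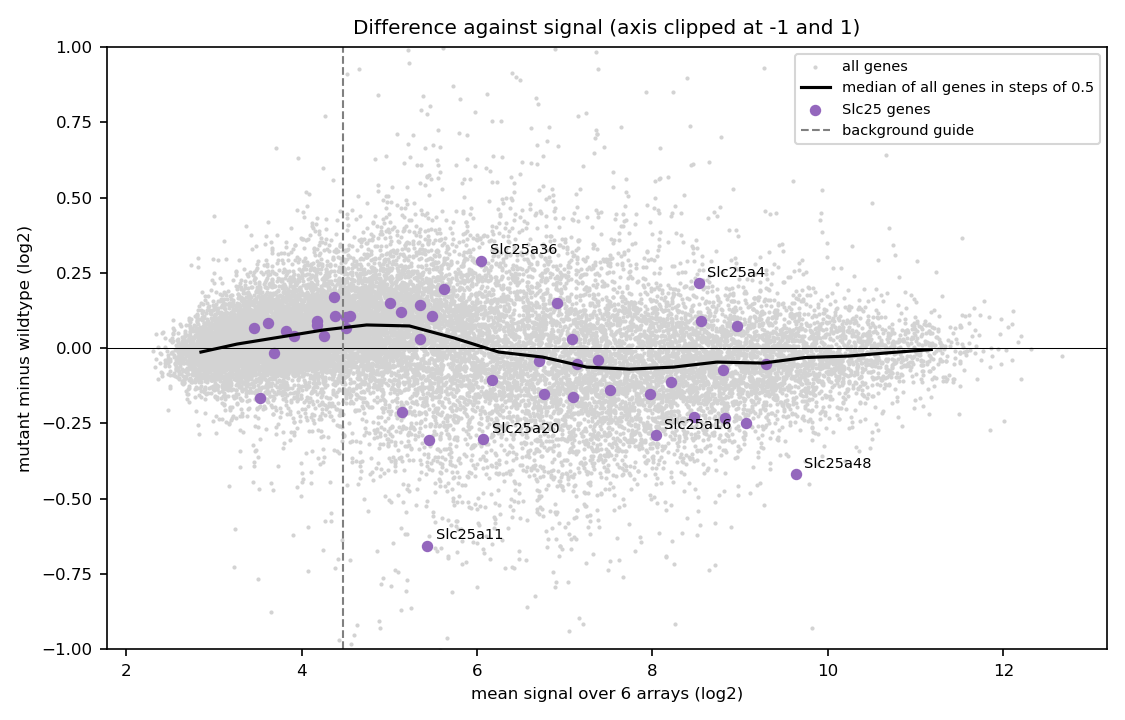
Mutant minus wildtype difference (vertical axis, log2) against the mean signal over 6 arrays (horizontal axis, log2), with all genes in grey, the 46 Slc25 genes in purple and the median of all genes in steps of 0.5 as a line. The dashed line is the background guide. The line lies above 0 among genes of low signal and below 0 among genes of high signal, and Slc25a48 and Slc25a11 lie well under it.

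Probe sets that share a gene gave like results with 1 exception. The 3 probe sets of Slc25a5 list the same accessions and were at -0.23, -0.19 and -0.19, and may also bind transcripts of similar copies of the gene. The pair for Slc25a36 was at 0.29 and 0.31. Slc25a40 had probe sets of opposite sign. Its brighter one was at 6.34, 6.34 and 6.00 for wildtype and 6.24, 5.95 and 6.17 for mutant, a difference of -0.11 (SE 0.120), and the other was at 5.66, 5.89 and 5.81 and at 5.85, 6.20 and 5.57, a difference of 0.087 (SE 0.157). Both had overlapping groups.

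The other genes of mitochondrial transport were read from 4 lists, in which 45 of 53 listed genes had a single-symbol probe set, and 0 of the 45 passed. At an unadjusted limma p under 0.05 there were 11, 4 higher and 7 lower, or 24.4% against 14.7% of all probe sets, and the groups were apart for 13, or 28.9% against 19.7%. The related genes lie at all levels of signal. Among all genes over the upper quartile the shares were 18.6% and 26.3%. They were 20.5% and 21.8% between the guide and that quartile, and 6.38% and 13.2% at or under the guide. Family members under other names gave 0 of 4. The uncoupling protein Ucp3 was at 0.19 and Ucp1 at 0.043 (-0.0083 after median centring), both under the guide, and Mtch1, a carrier-like protein of the outer membrane, at -0.12.

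Carriers are made in the cytosol and reach the inner membrane through the pore of the outer membrane, small chaperones of the intermembrane space and the TIM22 insertase. Of 12 genes of this import route 9 (75%) were negative with a median of -0.075, and 0 passed. Their median wildtype level was 8.2. Among all genes 46.5% were negative with a median of 0.013, and above the upper quartile 64.2% were, with a median of -0.043. Tomm40, the channel of the outer membrane, was at 8.06, 7.96 and 8.07 in the wildtype and at 7.77, 7.79 and 7.56 in the mutant samples, a difference of -0.32 (limma, adjusted p = 0.180). Tomm22, a receptor beside it, was at 8.56, 8.76 and 8.42 and at 8.26, 8.03 and 8.29, a difference of -0.39 (limma, adjusted p = 0.214). Timm13, an intermembrane chaperone, was at 8.16, 7.98 and 7.91 and at 7.64, 7.67 and 7.79, a difference of -0.32 (limma, adjusted p = 0.196). In these 3 genes the groups were apart. Tomm20, another receptor of the outer membrane, went the other way and is given because of its values, at 6.83, 7.20 and 6.80 for wildtype and 7.16, 7.33 and 7.26 for mutant. Its groups overlapped, and the difference was 0.31 (limma, adjusted p = 0.297).

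Of 17 other transporters and channels of mitochondria 10 were negative (58.8%, against 46.5% of all genes) with a median of -0.057, and 0 passed. Vdac2, a channel of the outer membrane, was at 9.06, 8.92 and 9.19 in the wildtype and at 9.55, 9.47 and 9.52 in the mutant samples. The groups were apart, with a difference of 0.46 (SE 0.080; limma, adjusted p = 0.122). The ABC transporters of the inner membrane Abcb10 and Abcb8 were at -0.32 (limma, adjusted p = 0.184) and -0.27 (limma, adjusted p = 0.281).

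Of 12 enzymes that work with the carriers in metabolite shuttles 8 were negative (66.7%, against 46.5% of all genes) with a median of -0.0067, and 0 passed. Gpd2, the mitochondrial enzyme of the glycerophosphate shuttle, was at 6.38, 6.67 and 7.56 in the wildtype and at 7.91, 7.74 and 7.91 in the mutant samples, with wildtype 3 apart from the other wildtype samples. Its difference was 0.98 (SE 0.279; limma, adjusted p = 0.214), and without wildtype 3 it was 1.33 (limma, adjusted p = 0.0394). Leaving out any other array gave 0.74 to 1.04, with adjusted p from 0.295 to 0.408 (limma). Its cytosolic partner Gpd1 was at 0.27 with a signal about at the guide. Got2, the mitochondrial aminotransferase of the malate-aspartate shuttle, was at 8.05, 8.18 and 8.22 and at 7.97, 7.86 and 7.92, a difference of -0.23 with groups apart (limma, adjusted p = 0.222).

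**Figure D5:**
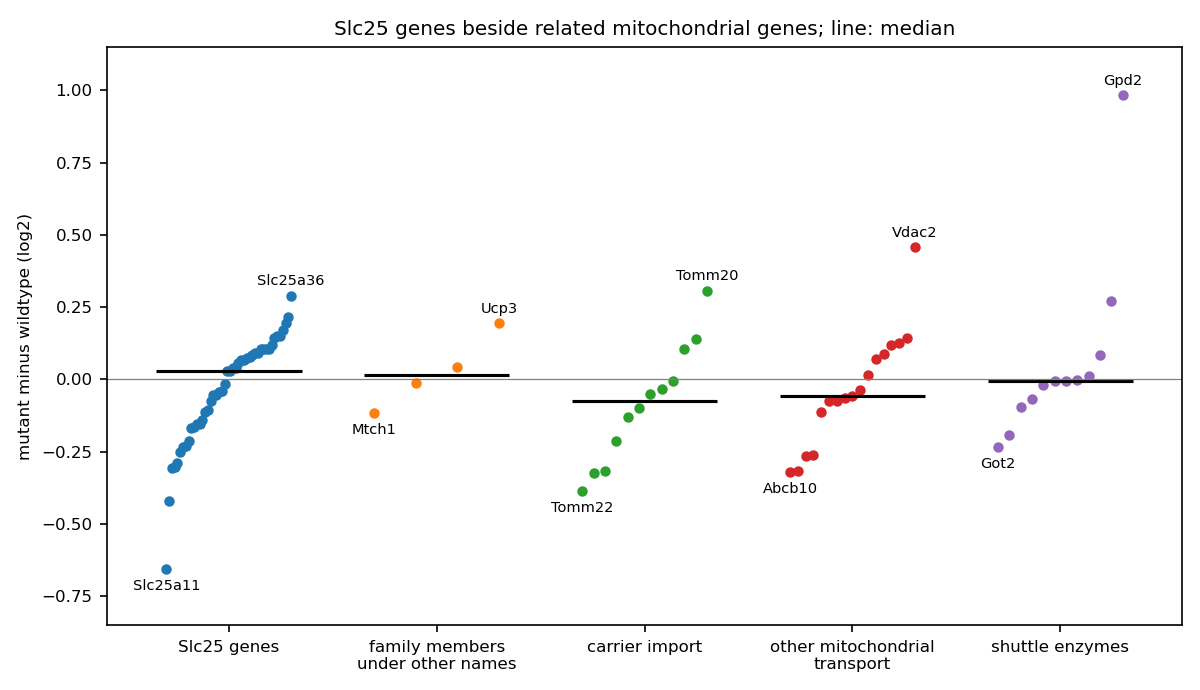
Mutant minus wildtype difference on the log2 scale (vertical axis) for the 46 Slc25 genes and the genes of 4 related lists, each point a gene, sorted within its column, and the line the median. The medians run from -0.075 for carrier import to 0.030 for the Slc25 genes, and Gpd2 at 0.98 and Vdac2 at 0.46 are the highest points.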

How the data were processed

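Per the labels' protocols, 1 ng of RNA from a Qiagen RNeasy Micro preparation was amplified and labelled with biotin using NuGEN kits. The deposited values are log2 values made by the authors with Affymetrix Expression Console 1.1 and RMA, per the submitters' processing notes. RMA brings the arrays close to a common distribution, so a change in total RNA per oocyte cannot be seen, and it compresses differences of dim probe sets. The number of arrays, 3 per group, limits the precision.

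Of 35556 probe sets, 21789 carried 1 gene symbol in the platform annotation, 1621 several and 12146 none. All 46 carriers were found by gene identifier in the RefSeq table of GRCm38.p6, with 0 symbols differing. Mutant minus wildtype was fitted by the functions lmFit and eBayes of limma 3.58.1 (R 4.3.3), two-sided and without covariates, over the 23410 probe sets with a symbol, with Benjamini-Hochberg adjustment and a threshold of 0.05. The procedure was tested on simulated data. The alternatives were a replicate block, filters on dim probe sets, other normalizations and variance settings, other sets of probe sets, and leaving out each array.

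The carriers and the lists were chosen with earlier results of these data known. Values in every sample are given for the 12 carriers with the smallest p-values, the 8 with the highest wildtype mean, the ADP/ATP and phosphate carriers and genes whose probe sets disagree in sign, and up to 3 genes of each related list are named. A difference is called apart where the groups do not overlap.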

Additional observations from a re-analysis of the deposited data

How the results depend on the processing

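No carrier passed the threshold in the main setting, nor under 15 of 16 alternatives. With trend and robust variance estimation 1 passed, Slc25a48, and 76 probe sets passed in all, against 32 in the main setting. That total was 1 with all probe sets of the table, 15 after averaging the probe sets of a gene, 1 with the replicate block and between 1 and 18 when an array was left out. The median difference of the carriers, 0.030 in the main setting, was -0.017 after cyclic loess, -0.022 after median centring, -0.00028 after quantile normalization, -0.0050 above the 25th percentile of signal and -0.073 above the median, where fewer carriers remained (40 and 29). In the same order the median over all genes kept, 0.013 in the main setting, was -0.0030, -0.038, 0.0039, 0.010 and -0.030. When an array was left out the carriers' median lay between -0.013 and 0.029, so its sign was not stable. Of 300 values of 19 named carriers under the alternatives, 299 kept their direction. Many of these values could not turn. The filters, the trend and robust variance estimation, the replicate block and the set of all probe sets leave a difference as it was. Averaging probe sets does so for a gene with only 1. Many of the carriers were also named for small p-values in these same arrays. Slc25a11, with the largest difference, lay between -1.01 and -0.44 over the omissions of an array. Relative to their size, small differences also moved much. Over the alternatives Slc25a1 lay between 0.037 and 0.137, Slc25a15 between -0.113 and -0.0083, Slc25a17 between -0.130 and -0.015 and Slc25a40 between -0.22 and -0.010. The exception in direction was Slc25a31, at -0.010 to 0.165 over the omissions of an array. Of the related genes, Mtch1 lay between -0.195 and -0.056 and Ucp3 between 0.107 and 0.24, Ucp1 was at -0.0083 after median centring and -0.012 to 0.098 over the omissions, and 0 to 1 related genes passed over the omissions, the 1 being Gpd2 without wildtype 3. In the wildtype order, the 8 leading carriers were the same 8 genes under all 6 alternatives tried. Median centring cannot change this order, quantile normalization keeps the order within each array, and averaging affects only genes with several probe sets. The omissions of a wildtype array were thus the main check. No sign was found that the replicate numbers paired the samples, though so few samples cannot exclude it. Deviations of same-numbered samples from their group means correlated at -0.0015, -0.031 and 0.036, and 2 of 6 samples correlated best with their own number. The replicate block left 0 carriers and 0 related genes called. For 14 carriers the signal was about at or under the background guide, which limits what the array could show of them.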
